A study of Mus musculus with 2 samples.

Results

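The linker histone H1 genes of the mouse histone cluster on chromosome 13, namely Hist1h1a, Hist1h1b, Hist1h1c, Hist1h1d, Hist1h1e and Hist1h1t, were followed through a RIP-seq experiment on Prrc2a. RIP-seq sequences the RNA recovered with a protein, here with an antibody against Prrc2a, an RNA-binding protein that the study examined as a reader of m6A, the methylation of adenosine within mRNA. Both libraries came from whole brain of wild type male C57BL/6J mice aged 4 weeks, they were replicates of the only condition, and no library of another genotype or treatment was analysed here. The study calls the replicates biological, but its protocol names 3 brains and does not say how they were divided between the replicates. The spread between replicates may therefore still be technical in part. The members were the 6 genes listed, of 21951 protein-coding genes. Their peaks were all those overlapping an exon of GENCODE release M21 by at least 1 bp, which gave 5 of 18129 peaks in replicate 1 and 4 of 18671 peaks in replicate 2. A peak was called shared when the replicate 1 peak overlapped a replicate 2 peak by at least 1 bp. The genes were selected on the fold enrichment of their peaks, which was known from these same libraries, so their counts and levels are descriptions and carry no test.

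Linker histones bind the DNA where it enters and leaves the nucleosome and help to compact chromatin. The mRNAs of the replication-dependent histones are made mainly while DNA is copied, come from genes without introns, and end in a conserved stem-loop in place of a poly(A) tail. Hist1h1a to Hist1h1e encode the somatic H1 subtypes, and Hist1h1t encodes the H1 of male germ cells. In newer nomenclature, Hist1h1a is H1f1, Hist1h1b is H1f5, Hist1h1c is H1f2, Hist1h1d is H1f3, Hist1h1e is H1f4 and Hist1h1t is H1f6.

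Hist1h1d, Hist1h1a, Hist1h1e and Hist1h1b carried a strong Prrc2a peak in both replicates, lying over most of the coding sequence. Hist1h1c had a weak peak in replicate 1 only, and Hist1h1t had no peak. A peak was present on 5 of 6 H1 genes in replicate 1, beside 16.5% of all protein-coding genes, and on 4 of 6 in replicate 2, beside 21.0%. Shared peaks were present on 4 of 6 H1 genes, beside 12.0% of all protein-coding genes. All 4 reached a fold enrichment of 4 in both replicates, beside 1.59% of protein-coding genes. Protein-coding genes without introns, of which there were 1331, had a shared peak in 10.6% of cases.

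GGAC is the core of the sequence context in which m6A is commonly placed, and it was searched on the transcript strand of each coding sequence. Hist1h1a, Hist1h1c and Hist1h1d held 1 GGAC each, Hist1h1e held 2, and Hist1h1b and Hist1h1t held none. The GGAC of Hist1h1d and the aligned 25 bases of the other genes are printed to show that 4 genes carry the motif at the same place of the coding sequence, with GGAC in capitals. The windows come from the GRCm38 sequence, 5′ to 3′ on the transcript strand.
Hist1h1a, chr13:23763821-23763845, plus strand: gaagcccgcgGGACcttcggtgtcg
Hist1h1b, chr13:21780432-21780456, minus strand: caaggccactggccccccggtgtcc
Hist1h1c, chr13:23738947-23738971, plus strand: taaggcgtccGGACccccggtgtcc
Hist1h1d, chr13:23555191-23555215, plus strand: caaggcgtccGGACccccggtgtcc
Hist1h1e, chr13:23622375-23622399, minus strand: caaaacctccGGACccccggtgtcc
Hist1h1t, chr13:23695973-23695997, plus strand: caaacctcggggtttctcagtttcc
The other site of Hist1h1e, with its A at position 23622068, was not shared with any other H1 gene at that place: aaggctgcggGGACagccaccgcca

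The 3′ stem-loop that replaces the poly(A) tail was found in the RefSeq transcript of every H1 gene, 24 to 40 bases after the stop codon and 4 or 5 bases from the annotated transcript end. It is printed in capitals with its flanks because it is the element that these mRNAs share and because its place relative to the peaks is given further on. The 16 bases were identical in the 5 somatic genes and differed in Hist1h1t.
Hist1h1a: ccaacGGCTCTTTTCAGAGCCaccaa
Hist1h1b: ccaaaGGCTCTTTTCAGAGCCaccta
Hist1h1c: caaaaGGCTCTTTTCAGAGCCacca
Hist1h1d: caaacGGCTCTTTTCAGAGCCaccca
Hist1h1e: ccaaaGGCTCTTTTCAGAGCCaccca
Hist1h1t: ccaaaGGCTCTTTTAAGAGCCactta

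Hist1h1d (ENSMUSG00000052565, plus strand, coding sequence 23555090 to 23555755) had the highest enrichment of the H1 genes. Fold enrichment is the linear ratio of immunoprecipitate to control that the peak caller gave at the summit of a peak. It was 19.9 in replicate 1, for the peak from 23555014 to 23555795, and 31.5 in replicate 2, from 23555057 to 23555764. The peak ranked 3 in each replicate's full list. Its mean of 25.7 ± 8.22 (SD, n = 2) was the highest of 7317 shared exonic peaks, those that overlap an exon of a protein-coding gene, whose median was 2.60 and whose 99th percentile was 7.98.

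Hist1h1a (ENSMUSG00000049539, plus strand, coding sequence 23763717 to 23764358) followed with 9.99 in replicate 1, from 23763739 to 23764380, and 19.0 in replicate 2, from 23763693 to 23764280. The mean was 14.5 ± 6.40 (SD, n = 2), rank 6 among the shared exonic peaks. Replicate 2 was the higher one, as for Hist1h1d.

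Hist1h1e (ENSMUSG00000051627, minus strand, coding sequence 23621838 to 23622497) went the other way. Its peak had 16.9 in replicate 1, from 23621729 to 23622563, and 7.23 in replicate 2, from 23621797 to 23622547. The mean was 12.1 ± 6.83 (SD, n = 2), rank 19.

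Hist1h1b (ENSMUSG00000058773, minus strand, coding sequence 21779883 to 21780554), which lies apart from the other 5 genes on the same chromosome, varied least. It had 8.82 in replicate 1, from 21780078 to 21780570, and 10.3 in replicate 2, from 21780106 to 21780580. The mean was 9.56 ± 1.04 (SD, n = 2), rank 39.

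Hist1h1c (ENSMUSG00000036181, plus strand, coding sequence 23738849 to 23739487) had 3.02 in replicate 1, from 23738844 to 23739219, close to the median of 2.84 over all replicate 1 peaks, and no replicate 2 peak. Hist1h1t (ENSMUSG00000036211, plus strand, coding sequence 23695866 to 23696495) had no peak in either replicate. The files list peaks only and hold no read totals, so no limit can be set on enrichment where a peak is missing. In whole brain, fewer cells with an mRNA and less of that mRNA per cell cannot be told apart, and enrichment is not a level of expression.

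**Figure D1:**
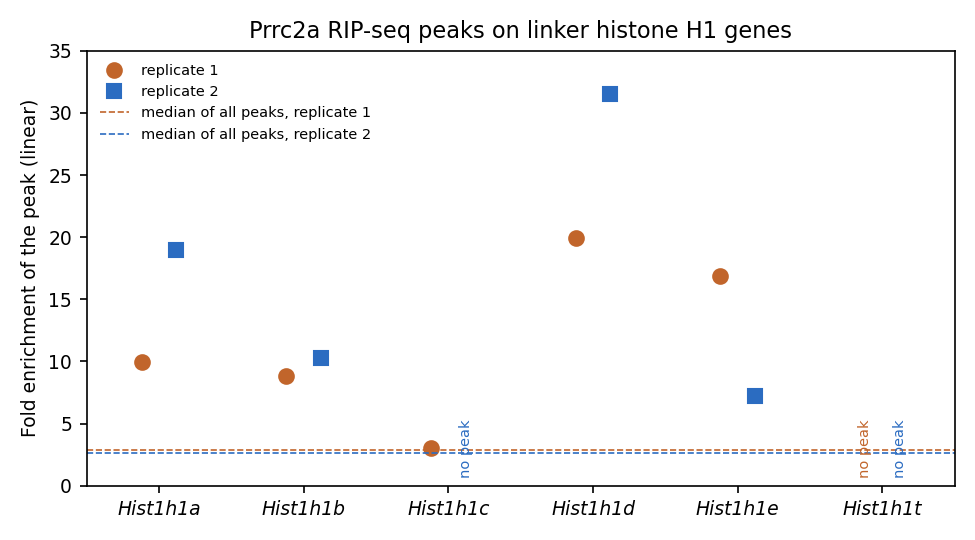
Fold enrichment (linear axis) of each peak on the 6 H1 genes, with 1 point per replicate and dashed lines at the median of all peaks of that replicate. Hist1h1d was highest in both replicates, at 19.9 and 31.5, Hist1h1c sat near the replicate 1 median of 2.84, and missing peaks are written as such.

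In the order Hist1h1d, Hist1h1a, Hist1h1e and Hist1h1b, only the first step separated the replicates' values: the lower Hist1h1d value of 19.9 was just above the higher Hist1h1a value of 19.0. The ranges of Hist1h1a and Hist1h1e overlapped, and the range of Hist1h1b lay inside that of Hist1h1e. Taken within each replicate, Hist1h1a lay above Hist1h1b both times, at 9.99 and 8.82 in replicate 1 and 19.0 and 10.3 in replicate 2. Hist1h1e lay above both in replicate 1 and below both in replicate 2. Hist1h1e was below Hist1h1d in both replicates, but with 2 replicates its order against Hist1h1a and Hist1h1b is not resolved.

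The change between replicates was not uniform among the H1 genes. The log2 ratio of replicate 2 to replicate 1 was 0.93 for Hist1h1a, 0.66 for Hist1h1d and 0.22 for Hist1h1b, close to or above the median of 0.28 (SD 0.51) over the shared exonic peaks. For Hist1h1e it was -1.22, a replicate 1 value 2.34 times that of replicate 2. Only 0.697% of shared exonic peaks had a lower log2 ratio than Hist1h1e, whereas 91.6% were lower than Hist1h1a.

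**Figure D2:**
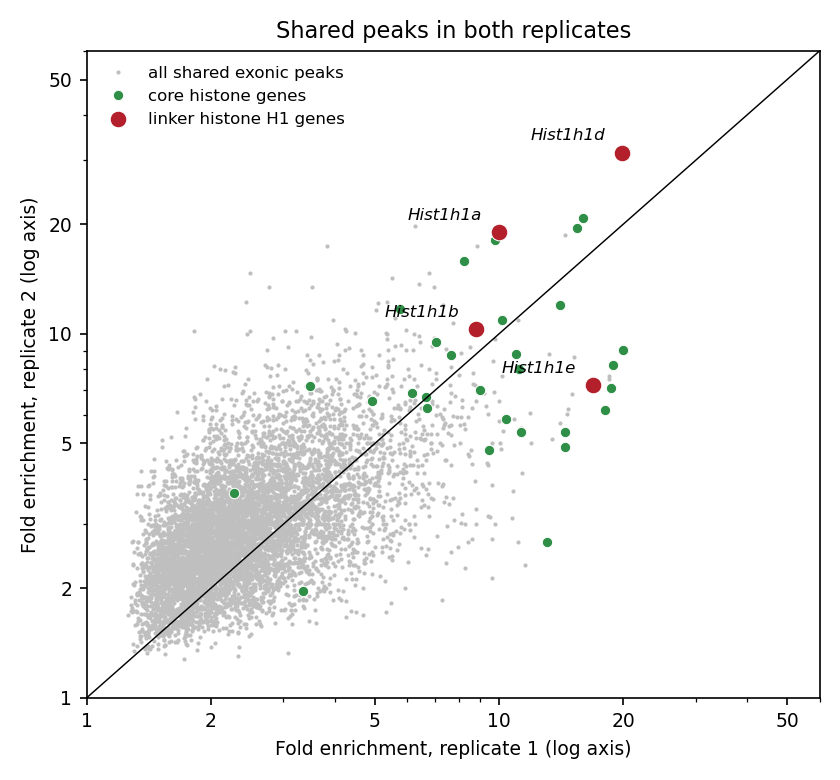
Fold enrichment in replicate 1 against replicate 2, both on log axes, for the 7317 shared exonic peaks (grey), the strongest shared peak of each core histone gene (green) and the H1 genes (red), with the line of equal values. Hist1h1d lies at the upper right end, Hist1h1a and Hist1h1b lie above the line, and Hist1h1e lies below it at 16.9 and 7.23.

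The replicates placed the peaks at nearly the same bases. For Hist1h1e the overlap was 751 bp, 89.9% of the peak in replicate 1 and the whole peak in replicate 2. For Hist1h1d these values were 708 bp, 90.5% and 100%, and for Hist1h1b they were 465 bp, 94.3% and 97.9%. Hist1h1a had the largest offset, with midpoints 73.0 bp apart and values of 542 bp, 84.4% and 92.2%. Each of the 9 peaks overlapped exons of its own H1 gene and of no other annotated gene. The lists hold no strand, so sense and antisense RNA cannot be told apart.

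Along the transcript, the peaks covered the coding sequence to different extents. The whole coding sequence of Hist1h1d (666 bases) and of Hist1h1e (660 bases) lay inside the peaks of both replicates. For Hist1h1a, 84.4% of 642 coding bases lay inside both. For Hist1h1b, 66.8% of 672 bases did, and the uncovered bases were at the 3′ end, since the peaks ended at transcript bases 548 and 520 while the coding sequence ended at base 743. The single peak of Hist1h1c likewise ended at base 413, with 58.1% of its coding sequence covered.

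At the 3′ end, the stem-loops printed above lay mostly outside the peaks. None of the 16 bases was inside a peak of Hist1h1a, Hist1h1b or Hist1h1c. The replicate 1 peak of Hist1h1d held 9 of them and the replicate 2 peak held 0. Hist1h1e differed, with all 16 inside the replicate 1 peak and 1 inside the replicate 2 peak. A stem-loop of this histone consensus was present in the GENCODE exons of 0.219% of protein-coding genes (48 of 21951). Of these 48, 40 were core histone genes, 4 were H1 genes and 4 were no histone gene of either list. The GENCODE exons of Hist1h1a and Hist1h1b stop short of the full stem-loop. A shared peak was present on 24 of the 48, beside 12.0% of all protein-coding genes. Most of the 48 are histone genes, and the H1 genes were picked on their enrichment. The count of 24 is therefore not separate from the counts of histone genes.

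**Figure D3:**
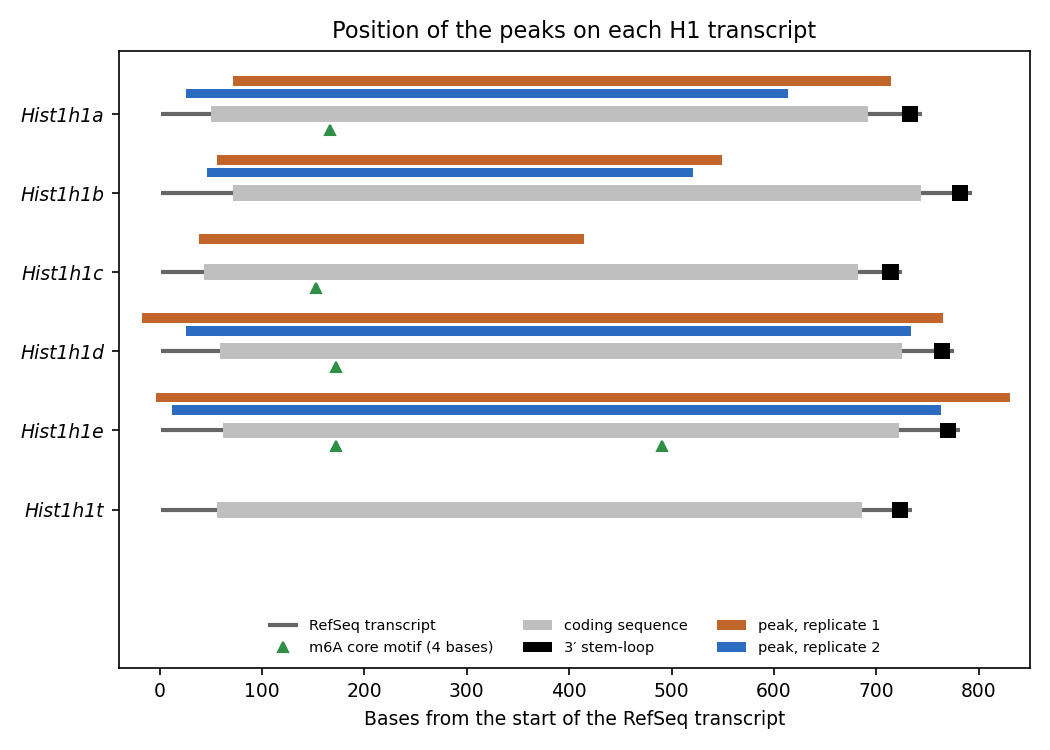
Peaks of replicate 1 (orange) and replicate 2 (blue) on the RefSeq transcript of each H1 gene, in bases from the transcript start, with the coding sequence in grey, the stem-loop in black and GGAC marked by green triangles. The peaks of Hist1h1d and Hist1h1e span the whole coding sequence, those of Hist1h1b end at bases 548 and 520, and Hist1h1t has none.

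Every GGAC in the coding sequences of Hist1h1a, Hist1h1d and Hist1h1e lay inside the peaks of both replicates, and that of Hist1h1c lay in its replicate 1 peak. Hist1h1b, with no GGAC, had peaks of 8.82 and 10.3 all the same. GGAC was thus held by 3 of 4 shared H1 peaks, beside 77.9% of all shared exonic peaks, and by 90.9% of the 1358 whose exonic length lay within that of the H1 peaks. Per 1000 exonic bases the H1 peaks held 1.46 GGAC and all shared exonic peaks 4.64. The longer GGACT was in none of the H1 coding sequences and in 0 of the 4 shared H1 peaks. It was held by 43.0% of all shared exonic peaks and by 54.1% of the 1358 of H1 peak length. The Hist1h1d peak, highest by mean among the shared exonic peaks, held a single GGAC in its 782 bp of replicate 1. A match is a run of letters and not a measured m6A site.

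The H1 peaks were moderately rich in G and C. The replicate 1 peaks shared with replicate 2 had 55.6% GC for Hist1h1a, 58.6% for Hist1h1b, 59.7% for Hist1h1d and 60.0% for Hist1h1e, between a median of 53.4% and a 90th percentile of 65.8% over the shared exonic peaks. The peak of Hist1h1c, the weakest, had the highest GC content at 66.2%.

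Sequence similarity among the genes bears on the counts, because the authors kept uniquely mapped reads only. Hist1h1c, Hist1h1d and Hist1h1e were closest, with 79.9% to 83.9% identical columns in pairwise alignments of their coding sequences. Hist1h1t was the most distant from every other H1 gene, at 58.7% to 60.7%. Of the windows of 100 bases, 13.7% in Hist1h1c, 10.2% in Hist1h1d and 9.80% in Hist1h1e occurred letter for letter in another H1 gene, and none did in Hist1h1a, Hist1h1b or Hist1h1t. With windows of 50 bases the shares were 21.9%, 26.4% and 25.4%, again among these 3 genes alone and none in the rest. The peaks of Hist1h1d and Hist1h1e included these windows. A read that reaches past a window, or whose mate does, can still be placed, and how many reads the filter removed was not measured. All 58 such windows of 100 bases in Hist1h1d lie in the part of its coding sequence from base 103 to base 359. Printed is the part from base 81 to base 380, on the plus strand at chr13:23555170-23555469 (GRCm38), where capitals mark the 256 bases within a window of 100 bases also found in Hist1h1c or Hist1h1e.
Hist1h1d: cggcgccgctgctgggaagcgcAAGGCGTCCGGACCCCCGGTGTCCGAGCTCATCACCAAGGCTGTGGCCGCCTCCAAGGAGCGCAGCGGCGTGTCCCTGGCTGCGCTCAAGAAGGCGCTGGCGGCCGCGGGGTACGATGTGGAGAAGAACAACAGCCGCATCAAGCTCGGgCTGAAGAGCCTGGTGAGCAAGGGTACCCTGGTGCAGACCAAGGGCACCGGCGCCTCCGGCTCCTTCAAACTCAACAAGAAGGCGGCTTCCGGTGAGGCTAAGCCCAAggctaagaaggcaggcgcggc

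The fold enrichments of Hist1h1a, Hist1h1b and Hist1h1d shared a further property. The most frequent values in each list were evenly spaced, by 0.194 in replicate 1 and 0.312 in replicate 2. Within 0.00003, 12.3% of replicate 1 peaks, 4.04% of replicate 2 peaks and 0.848% of shared peaks in both replicates (71 of 8372) fell on these values. Hist1h1a, Hist1h1b and Hist1h1d fell on them in both replicates, and Hist1h1e and Hist1h1c did not. The property was not particular to these H1 genes. Of the core histone peaks, 53.3% of 30 in replicate 1 and 30.0% of 40 in replicate 2 fell on these values. The core histone genes Hist1h2bm, Hist1h2bn, Hist1h3a and Hist1h4j did so in both replicates. Such values were more frequent among strong peaks: of those with a fold enrichment of at least 8, 39.5% of 177 in replicate 1 and 35.8% of 176 in replicate 2 were on them. In replicate 1 the share was already 39.2% at a fold enrichment from 4 to 6. In replicate 2 it was 18.6% in that range.

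MACS2 divides the pile-up of the immunoprecipitate at a summit by the higher of a local control level and a level set by the whole genome, so peaks with a common divisor differ by whole steps. Whether the divisor of these 3 genes was the genome-wide level was not tested. Hist1h1d lay 51 steps above Hist1h1a in replicate 1 and 40 steps above it in replicate 2. It lay 57 and 68 steps above Hist1h1b. Hist1h1a lay 6 steps above Hist1h1b in replicate 1 and 28 in replicate 2, so that the order of these 3 genes was the same in both replicates. Hist1h1e, whose values were off this scale, cannot be placed in it.

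**Figure D4:**
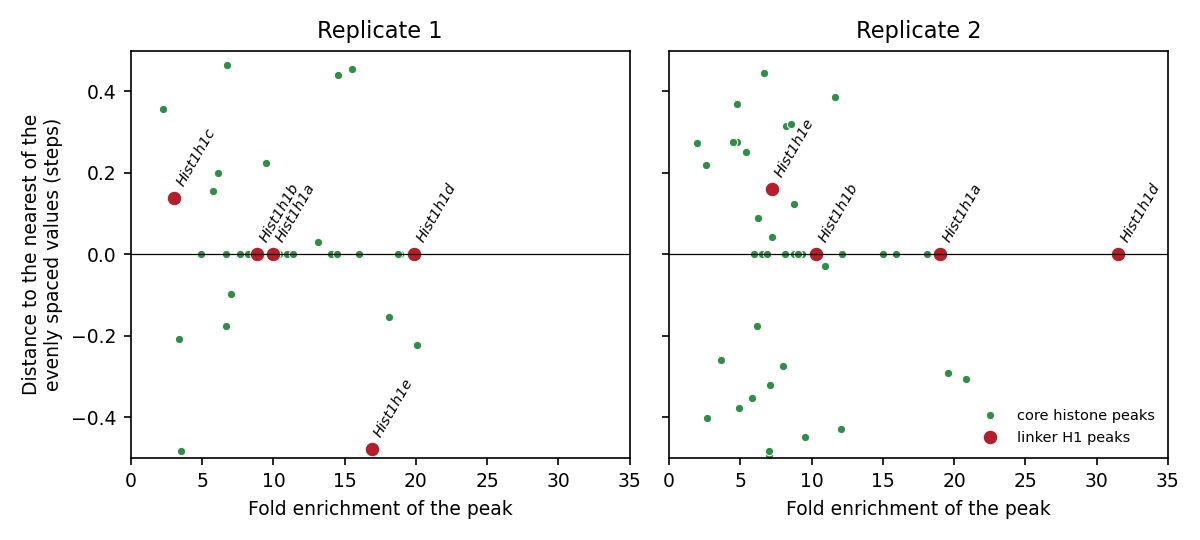
Distance of each H1 peak (red) and core histone peak (green) from the nearest of the evenly spaced values, in steps, against its fold enrichment on a linear axis, for replicate 1 (left) and replicate 2 (right). Hist1h1a, Hist1h1b and Hist1h1d lie at 0 in both panels, and Hist1h1e does not in either.

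The core histones form the octamer around which DNA is wound, and their replication-dependent mRNAs share the stem-loop with the H1 mRNAs. Of 61 core histone genes, 31 (50.8%) had a shared peak, with mean fold enrichments from 2.65 to 18.4 and a median of 8.70, beside a median of 13.3 over the 4 H1 genes. By family, these were 11 of 13 H4 genes, 7 of 12 H3 genes, 8 of 18 H2B genes and 5 of 18 H2A genes. The 31 genes rested on 29 shared peaks, and Hist2h2aa1 counted through a replicate 2 peak outside its own exons. The most enriched were Hist1h4b at 18.4, Hist1h4c at 17.5, Hist2h2bb and Hist2h3b at 14.5 each, and Hist1h4j at 13.9. Hist2h2bb and Hist2h3b had 1 common peak in replicate 1, at 20.0. In replicate 2 they had separate peaks at 7.03 and 9.05, and 9.05 was used for both means. The place of Hist2h2bb in this order therefore rests on the peak of its neighbour. Hist1h1d lay above all 31 core histone genes in mean enrichment. Of the 20 shared exonic peaks with the highest mean, 3 were on H1 genes and 9 on core histone genes.

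A lower value in replicate 2, as in Hist1h1e, was also common among core histone genes, of which 18 were higher in replicate 1 and 13 in replicate 2, with a median log2 ratio of -0.32. The nearest peak beyond the exons of Hist1h1e, on Hist1h2be 34658 bp away in replicate 1 and 34584 bp in replicate 2, likewise had 14.5 in replicate 1 and 4.88 in replicate 2. For Hist1h1d the nearest outside peak, on Hist1h3e at 1222 and 1233 bp, had 18.7 in replicate 1 and 7.08 in replicate 2 although Hist1h1d itself was higher in replicate 2. Hist1h1d was the exception here, since Hist1h1a, Hist1h1b and Hist1h1e each changed between replicates in the same direction as the nearest outside peak.

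Peaks just outside the H1 exons belonged to other histone genes. All such distances are from the GENCODE exon, which for Hist1h1d ends at 23560686, far beyond the RefSeq end at 23555807, so that the Hist1h3e peak is farther from the RefSeq transcript than the distance given. They lay 1336 and 1313 bp from Hist1h1a on Hist1h3a (8.24 in replicate 1 and 15.9 in replicate 2), and 2327 and 2301 bp from Hist1h1b on Hist1h3i (10.2 and 10.9). Hist1h1t, without a peak of its own, had the peak of Hist1h4c at 1375 and 1348 bp (15.5 and 19.6). Hist1h1c had Hist1h2bb at 6348 bp in replicate 1 (10.4) and Hist1h3c at 4751 bp in replicate 2 (8.53).

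Other gene groups were read against the same background of 12.0% of protein-coding genes with a shared peak, 16.5% with a peak in replicate 1 and 21.0% in replicate 2. H1f0 and H1fx encode replacement linker histones, H1foo that of the oocyte, and H1fnt and Hils1 those of the testis, and 0 of these 5 had a peak in either replicate, a count too small to set apart from that background. Among 19 genes for histone mRNA 3′ end formation and decay, only Casp8ap2, a factor of histone pre-mRNA cleavage, had a shared peak. It had 2, of which the one with the higher mean had 3.14 in replicate 1 and 3.52 in replicate 2. Slbp, which encodes the protein that binds the stem-loop, had none. Of 19 genes of DNA replication and cell division, 0 had a shared peak and Mcm6 had 1 in replicate 2 alone, at 3.21. Of 8 male germ cell markers none was shared, with Prm1 at 3.91 and Ddx4 at 9.79 in replicate 1 only, while Tnp1, Tnp2, Prm2, Acrv1, Sycp3 and Tex101 had no peak. The brain markers Snap25, Syt1, Slc17a7, Gad1, Gfap and Aqp4 had no peak, Map2 and Cx3cr1 had peaks in replicate 2 only, and Mbp had peaks in each replicate that did not overlap. A list of peaks does not measure how much of an mRNA was present, so these markers do not check the tissue.

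**Figure D5:**
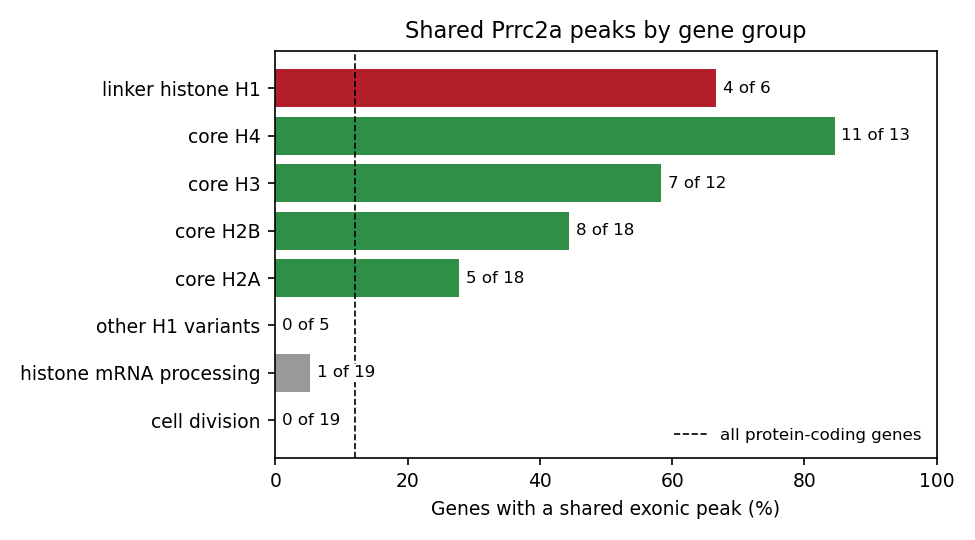
Share of genes (percent) with a shared exonic peak in each group, with counts beside the bars and a dashed line at 12.0%, the share over all protein-coding genes. The H1 bar stands at 66.7%, among the core histone families, while other H1 variants and cell division genes are at 0.

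The protein-coding genes whose strongest shared peak was nearest to that of Hist1h1d, by the distance of log2 fold enrichment over the 2 replicates among 2628 genes, were Hist1h4b (0.68), Hist1h4c (0.78), Wnt1 (0.88), Hist1h1a (1.23) and Hist1h4j (1.30). Wnt1, which encodes a secreted signalling protein, was the only one that is no histone gene, with 14.5 in replicate 1 and 18.7 in replicate 2. Likeness over 2 values is a description of these libraries.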

How the data were processed

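The assay was Prrc2a RIP-seq of mouse brain in 2 replicates. After trimming, the authors placed reads on mm10 by TopHat, retained unique alignments and called peaks in each replicate with MACS2 at an FDR threshold; the labels give TopHat2 2.0.9 and MACS2 2.0.10, the study's methods name other versions of both, and the control of this call is not given in the sources used here. The values the authors deposited are peak positions and a fold enrichment, a linear ratio over the control. Depth is not in the files, so no counting interval could be given, and the error is the SD over 2 replicates.

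Peaks were set against exons of GENCODE M21, and transcripts and coding sequences of RefSeq (GRCm38), with Python 3.11.15, numpy 2.4.6, pysam 0.24.0 and samtools 1.23.1. Coding sequences were aligned globally with Biopython 1.88, and figures were drawn with matplotlib 3.10.9. Evenly spaced values were fitted from the 8 most frequent values of each list. The functions were tested on simulated data, and 4 of 4 quantities were recovered exactly. All members and gene lists were chosen with earlier results of these data known. Named genes were the 6 H1 genes, the other H1 variants, up to 5 genes with the highest mean enrichment of each list, members of short lists without a shared peak (1 of them is not reported here), and the 5 genes nearest in pattern to Hist1h1d. Other genes, such as Mcm6, Slbp and those of the nearest peaks, were named after their values were seen. No group comparison was possible with 1 condition. Alternatives were a stricter overlap, each replicate alone, a fold enrichment of at least 4, 1 gene per peak, whole gene spans, the geometric mean, replicate 2 peaks counted and another motif.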

Additional observations from a re-analysis of the deposited data

How the results depend on the processing

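Of 51 alternative values for 9 results, 43 were counted as the same result, 8 as moved and 0 as reversed. The same result did not mean a close value, since 40 core histone genes beside 31 were counted so. The number of H1 genes with a shared peak was 4 under every alternative except replicate 1 alone, which gave 5 through Hist1h1c. That of core histone genes ranged from 26 to 40. Leaving out a replicate changed the median H1 fold enrichment from 13.3 to 9.99 or 14.7. It changed the median share of H1 coding sequence inside peaks from 75.6% to 83.8% or 77.3%. That share was taken over all 6 H1 genes, so Hist1h1c and Hist1h1t entered the 75.6% as 0. The histone mRNA processing genes went from 1 to 3 or 5, and the cell division genes to 0 or 1. The 9.99 is from replicate 1 alone, where Hist1h1c at 3.02 joins the set. Over the 4 genes with a shared peak, the replicate 1 median was 13.4. With a fold enrichment of at least 4, 0 processing genes remained. With GGACT in place of GGAC, 0 of the H1 peaks held the motif rather than 3. By construction, these alternatives drop a replicate, raise a threshold or lengthen the motif. No paired analysis was possible because there was 1 group. Depth is unknown, so a missing peak on Hist1h1c in replicate 2 or on Hist1h1t is no measure of absence.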
